A study of Rattus norvegicus with 10 samples.

Results

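Genes of sterol and fatty acid synthesis were followed in the neurointermediate lobe of the rat pituitary after 3 days of dehydration and in controls. The list has 35 genes in pathway order: enzymes from acetyl-CoA to squalene, enzymes from squalene to cholesterol, genes that control, take up or export sterol, and enzymes of fatty acid synthesis and desaturation. A member was read from probe sets whose platform annotation gave its symbol and no other, and where a gene had several, the probe set with the highest mean signal over all 10 arrays stood for it. In this way 33 of the 35 genes were measured, of 14218 genes named in this way on the array, and the 33 had 56 probe sets. Hmgcs1 and Scd1 had no such probe set in the annotation table, and their signals are not analysed here.

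Both groups were male Sprague Dawley rats of 10 to 12 weeks, and each group had 5 Affymetrix Rat Genome 230 2.0 arrays, each carrying RNA pooled from a separate set of 5 animals. The groups differed, per the labels, only in the dehydration of 3 days. The lobe holds axon endings of hypothalamic vasopressin and oxytocin neurons, glial pituicytes and the melanotrophs of the intermediate lobe, all in 1 extract, so that fewer cells of a type and less RNA per cell cannot be told apart. The design text speaks of the supraoptic nucleus, whereas the title and all sample labels name the neurointermediate lobe, and the labels were followed. Of the 7 melanotroph markers examined, 6 were measured and all 6 passed the filter on dim signals, Pomc among them.

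Cholesterol is built from acetyl-CoA through mevalonate, isoprenoid diphosphates, squalene and lanosterol. The transcription factor SREBP-2, made from Srebf2, switches on most of these enzymes when membranes of the endoplasmic reticulum run low in sterol. Its escort Scap carries it to the Golgi for cleavage, while Insig proteins hold the pair back when sterol is plentiful. SREBP-1, made from Srebf1, acts mainly on fatty acid genes. In the brain most cholesterol is made locally, largely in glia, and whether this holds in the neurointermediate lobe was not tested.

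Of the 33 measured members, 6 fell in the dehydrated lobe, none rose, 26 did not pass and 1, Scd, was too dim to be tested (limma, adjusted p under 0.05 over 18625 probe sets). The 6 were Lrp8, Idi1, Srebf2, Sqle, Fdps and Insig1. They make up 18.8% of the 32 tested members. Of all tested probe sets 2.46% were called, 0.784% lower and 1.68% higher. These units differ, since a member is 1 probe set per gene and the whole counts every tested probe set. With the probe sets of a gene averaged, 7 members and 0.915% of all tested entries were called lower. On simulated data the fit recovered 36% of changes of 0.5 on the log2 scale and 2% of changes of 0.25. A member that did not pass is therefore not shown to be unchanged. Before adjustment, 15 members had a p under 0.05 with a lower signal and 0 with a higher signal, beside 8.66% lower and 8.70% higher of all tested probe sets. The change was negative in 30 of the 33 members, with a median of -0.24 on the log2 scale, beside a median of -0.01 and 52.6% negative changes over all tested probe sets. With each array centred on its median, Tm7sf2, Sc5d and Srebf1, all near 0, had positive changes too. In 6 of the 32 tested members every dehydrated array lay below every control array, a pattern found in 1.81% of all tested probe sets. The reverse pattern was found in none of the members and in 2.78% of all. Because the members were chosen with earlier results of these data known, these shares are a description and not a test. The early enzymes, the late enzymes and the control genes had medians of -0.28, -0.28 and -0.31, and that of the fatty acid genes was -0.11. With the 3′ to 5′ ratio of each array, a measure of RNA integrity given further on, as a covariate, these medians were -0.30, -0.35, -0.16 and -0.09 in the same order. The value of -0.09 leaves out Scd, which was not tested, whereas that of -0.11 includes it.

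**Figure D1:**
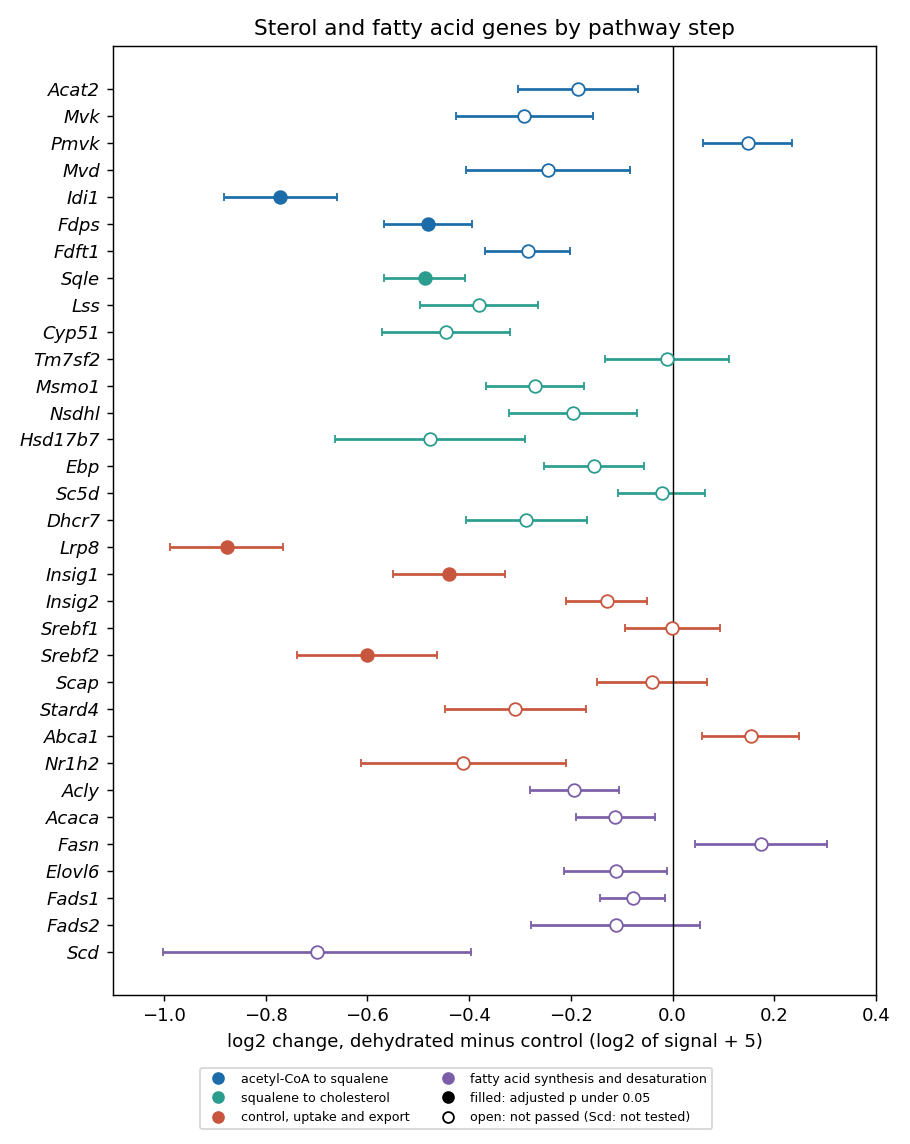
The log2 change of each member, dehydrated minus control, is plotted in pathway order with its moderated standard error (for Scd, that of the fit without a filter), coloured by role and filled where the adjusted p was under 0.05. The 6 filled points lie between -0.88 and -0.44, and only Pmvk, Abca1 and Fasn lie to the right of 0, joined by Tm7sf2, Sc5d and Srebf1 when each array is centred on its median.

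The promoters of the members that fell are shown because SREBP acts on such genes together with the factors NF-Y and Sp1, whose binding letters can be looked for. Sequences were given by RefSeq on build GRCr8 for 26 of the 35 listed genes, and for 4 of the 6 that fell. Each is the 250 bases before the annotated start, 5′ to 3′ on the gene's strand. Idi1 lies at chr17:66547525-66547774 on the minus strand, Fdps at chr2:176804817-176805066 on the minus strand, Insig1 at chr4:8057770-8058019 on the minus strand and Srebf2 at chr7:115543057-115543306 on the plus strand. Capitals mark the NF-Y letters CCAAT on either strand (ATTGG on the other) and the core CACNCCAC of the sterol regulatory element.
Idi1: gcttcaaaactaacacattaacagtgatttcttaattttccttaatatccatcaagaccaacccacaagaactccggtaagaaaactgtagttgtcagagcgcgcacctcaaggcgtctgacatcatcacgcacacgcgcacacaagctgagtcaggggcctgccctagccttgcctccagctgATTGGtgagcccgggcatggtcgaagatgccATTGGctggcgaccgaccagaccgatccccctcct
Fdps: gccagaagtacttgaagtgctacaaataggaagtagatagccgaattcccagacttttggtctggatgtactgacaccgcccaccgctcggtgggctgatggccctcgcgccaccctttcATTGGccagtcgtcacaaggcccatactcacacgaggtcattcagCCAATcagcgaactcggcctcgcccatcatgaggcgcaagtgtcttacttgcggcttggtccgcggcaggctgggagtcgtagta
Insig1: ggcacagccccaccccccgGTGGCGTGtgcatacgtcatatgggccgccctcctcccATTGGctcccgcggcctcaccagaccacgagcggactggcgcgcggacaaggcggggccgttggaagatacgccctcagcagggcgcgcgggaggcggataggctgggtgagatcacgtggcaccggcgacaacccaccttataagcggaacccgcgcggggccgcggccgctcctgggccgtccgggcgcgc
Srebf2: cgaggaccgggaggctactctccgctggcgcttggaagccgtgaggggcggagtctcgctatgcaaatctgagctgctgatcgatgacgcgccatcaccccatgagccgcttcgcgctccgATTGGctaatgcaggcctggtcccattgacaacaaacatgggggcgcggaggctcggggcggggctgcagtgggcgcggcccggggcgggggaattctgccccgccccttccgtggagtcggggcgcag

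All 4 of these promoters held the NF-Y letters, 3 (all but Idi1) held the Sp1 letters and 1, that of Insig1, held the sterol element core. The NF-Y letters stood in Idi1 at -66 to -62 and -35 to -31 from the start. They stood in Fdps at -130 to -126 and -85 to -81, in Insig1 at -193 to -189 and in Srebf2 at -129 to -125. The 26 genes have 27 promoters in the table, 2 of them of Srebf1. Of these 27, 19 (70.4%) held CCAAT on either strand, beside 34.0% of all 33469 promoters in the table. The Sp1 letters GGGCGG stood in 22 (81.5%), beside 30.5% of all. The sterol element core CACNCCAC stood in 4 (14.8%), those of Acat2, Ebp, Fads1 and Insig1, beside 4.89% of all, and the E-box CACGTG in 4 (14.8%), beside 5.59%. The longer sterol regulatory element, which contains the core, was in 0 of the 27 and in 0.23% of all. These counts describe exact matches to the letters in a window of 250 bases. Near matches were not counted, so a promoter without the letters is not shown to lack a sterol element. The counts include members that did not pass and Hmgcs1, which was not measured.

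**Figure D2:**
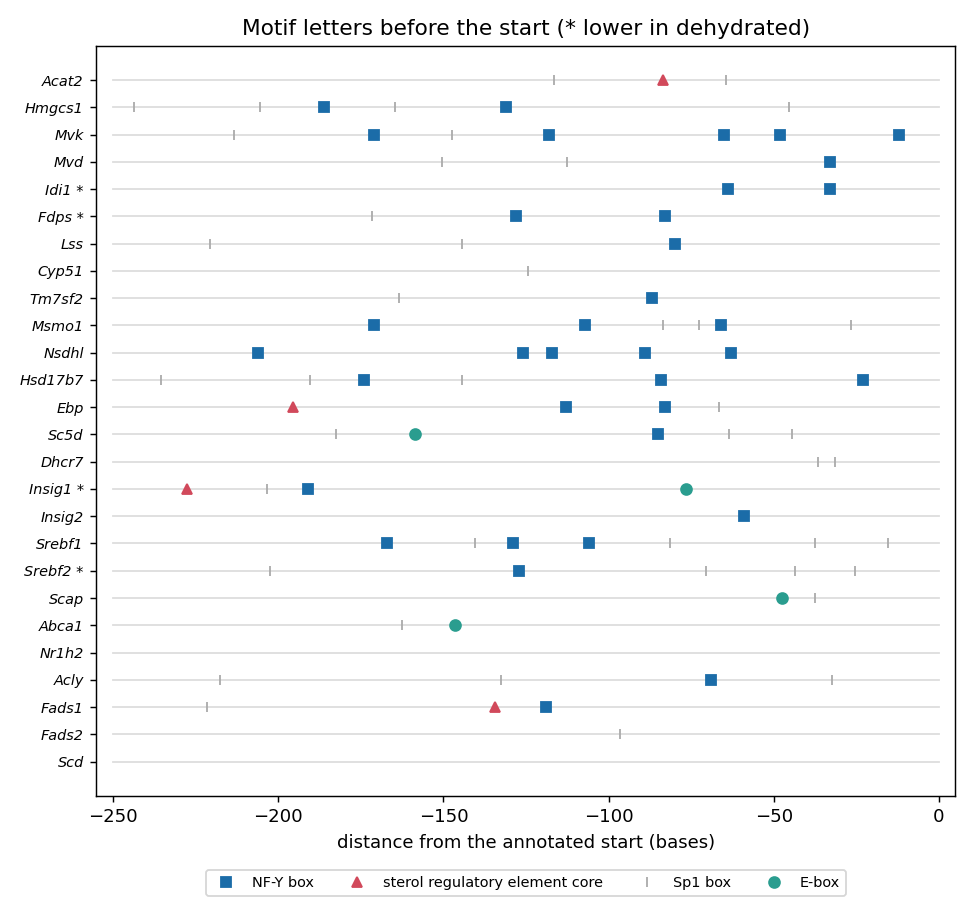
Positions of the motif letters are drawn in the 250 bases before the annotated start of 26 listed genes, with a star on the 4 that fell. NF-Y letters stand in 18 of the 26 rows and sterol element core letters in 4.

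In the first stretch of the pathway, from acetyl-CoA to squalene, 2 of 7 measured genes fell. Idi1 makes the isomerase that interconverts the building blocks of isoprenoids (Entrez Gene 89784). Its signals were 108.4, 129.3, 103.6, 98.0 and 87.9 on the dehydrated arrays 1 to 5 and 170.1, 192.4, 168.6, 218.6 and 165.8 on the control arrays 1 to 5. The highest dehydrated array was therefore below the lowest control array, with control 4 above the rest. The log2 change was -0.77 ± 0.11 (SE, limma adjusted p = 0.000981), a control level 1.71-fold above the dehydrated one. A second, dimmer Idi1 probe set also fell, by 0.93 (adjusted p = 0.0175), with control 5 at 54.5 just below dehydrated 2 at 58.9.

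Fdps makes farnesyl diphosphate, the branch point to sterols and to prenylated proteins (Entrez Gene 83791). Its signals were 211.9, 225.8, 212.4, 244.8 and 281.9 under dehydration and 306.2, 332.2, 344.3, 323.3 and 338.3 in the controls. The groups did not overlap, and dehydrated 5 and control 1 lay closest to each other. The change was -0.48 ± 0.09 on the log2 scale (SE, adjusted p = 0.00548 in limma).

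Fdft1, squalene synthase, had no overlap either, at 133.6 to 152.0 under dehydration and 161.5 to 189.8 in the controls, but did not pass (log2 change -0.28, limma adjusted p = 0.0838). Its second probe set gave the same change of -0.28. The mevalonate kinase Mvk had a change of -0.29, the decarboxylase Mvd of -0.24 and the thiolase Acat2 of -0.19. Pmvk, the kinase between Mvk and Mvd, had a change of 0.15, with a 95% interval of -0.04 to 0.33. None of these 4 passed (adjusted p = 0.277 to 0.462), and their groups overlapped.

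From squalene to cholesterol, 1 of 10 genes fell and all 10 changes were negative. Sqle makes squalene epoxidase, a control point of the pathway (Entrez Gene 29230). Its signals were 192.4, 164.6, 197.8, 170.8 and 167.7 under dehydration and 245.5, 242.5, 250.1, 254.8 and 266.6 in the controls. The gap between the groups was wider than the range within either. The log2 change was -0.49 ± 0.08 (SE, limma adjusted p = 0.00287).

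Of the other 9, Cyp51, the lanosterol demethylase, had signals of 89.0, 132.7, 121.6, 117.3 and 93.2 under dehydration and 120.5, 151.1, 162.3, 178.2 and 148.1 in the controls. Its groups overlapped only through control 1, and its change of -0.44 did not pass (limma adjusted p = 0.0729). Lss, which closes the sterol rings to lanosterol, had a change of -0.38 (adjusted p = 0.0962). The reductase Hsd17b7 had a change of -0.48 from a dim probe set with means of 29.8 ± 3.0 in the controls and 20.5 ± 6.0 under dehydration (SD, n = 5, limma adjusted p = 0.200). Msmo1, an oxidase that removes methyl groups, had a change of -0.27, and Dhcr7, the last reductase before cholesterol, of -0.29. The values were -0.20 for Nsdhl and -0.15 for Ebp, a dehydrogenase and an isomerase of the sterol ring. Adjusted p was 0.163 to 0.451 for these 4. Tm7sf2, a sterol reductase, and Sc5d, a desaturase, were nearest to 0, at -0.01 (95% interval -0.27 to 0.25) and -0.02 (-0.20 to 0.16). The signs of both turned when each array was centred on its median. Another Sc5d probe set had a change of -0.39 (adjusted p = 0.151).

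**Figure D3:**
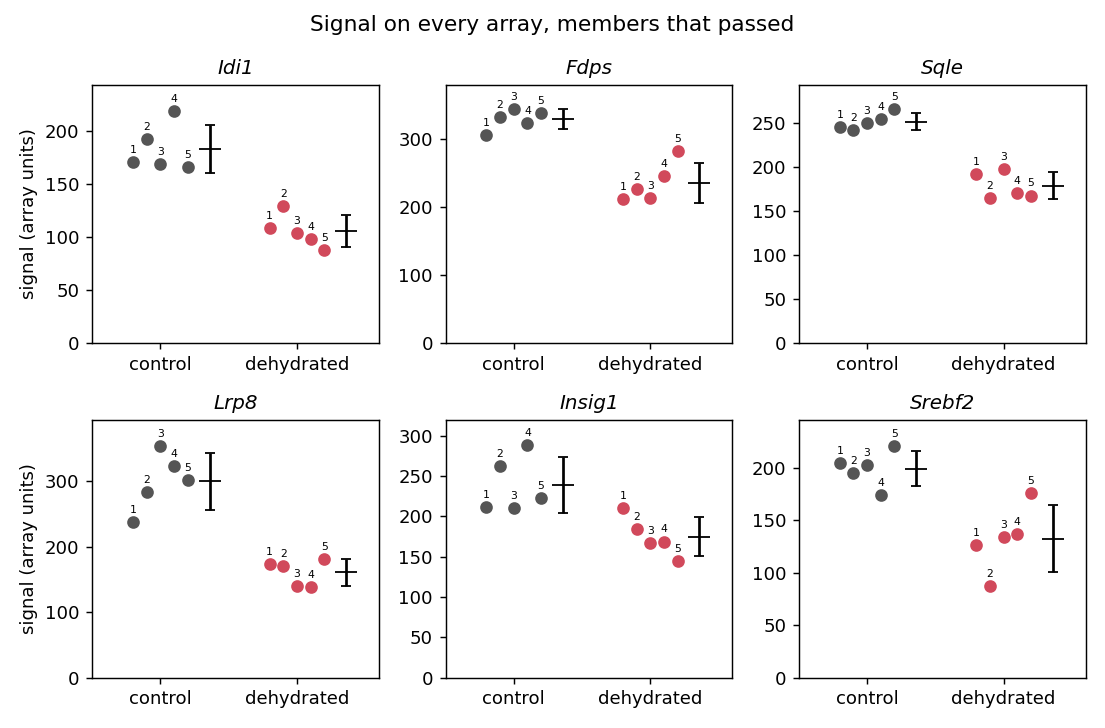
Signal on each array, in the authors' array units from 0, is plotted for the 6 members that fell, with array numbers above the points and the mean ± SD of 5 arrays as a bar. The groups are apart in 5 of the 6 panels, and in the Srebf2 panel dehydrated 5 lies level with control 4.

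Among the 9 genes of sterol control, uptake and export, 3 fell. Lrp8 had the largest change of the 32 tested members (Entrez Gene 362558). It encodes a lipoprotein receptor that binds apolipoprotein E and the matrix protein reelin. Its signals were 173.5, 171.3, 139.6, 138.2 and 181.9 under dehydration and 238.0, 283.7, 354.2, 322.9 and 302.1 in the controls. The highest dehydrated array, dehydrated 5, was well below the lowest control array, control 1. The log2 change was -0.88 ± 0.11 (SE, limma adjusted p = 0.000291), a control level 1.84-fold above the dehydrated one.

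Srebf2 had signals of 126.5, 87.4, 134.4, 137.3 and 176.4 under dehydration and 204.5, 194.7, 202.6, 174.0 and 221.0 in the controls (Entrez Gene 300095). Dehydrated 5 lay above control 4, the only overlap. The log2 change was -0.60 ± 0.14 (SE, limma adjusted p = 0.0270). The call ended with the RNA integrity ratio as a covariate (-0.45, adjusted p = 0.0814), and under 9 of 21 alternatives in all, 6 of which each left out 1 array (dehydrated 1 or 3, or control 1, 2, 3 or 5), with an adjusted p of at most 0.0739 among those 6. Its second probe set gave at most 12.1 on any array and was not tested.

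Insig1, a target of SREBP that in turn restrains it, had signals of 209.7, 184.0, 166.8, 168.7 and 144.9 under dehydration and 211.9, 261.7, 210.7, 288.8 and 222.2 in the controls (Entrez Gene 64194). The groups did not overlap, but dehydrated 1 lay just under control 3. The log2 change was -0.44 ± 0.11 (SE, limma adjusted p = 0.0464). This call was at the threshold and ended under 12 of 21 alternatives, which included quantile normalization and centring on the median and 8 that each left out 1 array (any but dehydrated 1 and control 1), with an adjusted p of at most 0.120. The related Insig2 had signals of 201.3, 207.2, 246.2, 206.5 and 207.2 under dehydration and 219.3, 240.1, 235.9, 223.4 and 250.8 in the controls. Its change of -0.13 did not pass (95% interval -0.30 to 0.04, adjusted p = 0.428), and whether the Insig genes differ from each other was not tested.

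Srebf1 had signals of 667.1, 684.7, 629.2, 526.8 and 488.6 under dehydration and 599.2, 609.0, 648.3, 573.0 and 546.8 in the controls (Entrez Gene 78968). The dehydrated arrays lay both above and below the control range, and the change had a 95% interval of -0.20 to 0.20 (limma adjusted p = 0.998). A second Srebf1 probe set read otherwise, at 30.1, 30.9, 55.3, 38.6 and 110.9 under dehydration and 60.5, 123.2, 149.7, 72.1 and 131.4 in the controls. Its change was -1.03 (limma adjusted p = 0.0810), with -0.56 (adjusted p = 0.189) when the integrity ratio was a covariate and -1.49 (adjusted p = 0.00117) without dehydrated 5 and control 1. On that probe set dehydrated 5 lay above 2 control arrays, and control 1 and control 4 lay below the other 3. Averaging both probe sets gave -0.52 (adjusted p = 0.0630).

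Scap had signals of 172.2, 206.5, 176.1, 160.3 and 211.0 under dehydration and 217.1, 218.8, 169.4, 159.0 and 191.2 in the controls, overlapping throughout, with a change of -0.04 (limma adjusted p = 0.889). Stard4, which moves cholesterol between membranes, had a change of -0.31 (adjusted p = 0.263). On its probe set dehydrated 2, at 162.4, lay above all control arrays while the other 4 dehydrated arrays lay at 89.6 to 96.8, below all of them. Without dehydrated 2 the change was -0.46 and passed (adjusted p = 0.0133). Nr1h2, the sterol-sensing nuclear receptor LXR-beta, had a change of -0.41 (adjusted p = 0.307). It was -0.16 with the integrity ratio as a covariate and -0.26 without control 5. Abca1, the cholesterol exporter that LXR induces, had a change of 0.15 (adjusted p = 0.432), which was 0.09 without dehydrated 1 and 0.23 without dehydrated 2. The other 3 Abca1 probe sets had changes of -0.13, -0.17 and -0.52, and the mean of the kept ones turned the sign to -0.05.

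In fatty acid synthesis and desaturation none of 6 tested genes passed, and 1 had an unadjusted p under 0.05. Acly, which makes cytosolic acetyl-CoA for both pathways, was that gene, with a change of -0.19 (limma adjusted p = 0.271) that was -0.10 with the integrity ratio as a covariate. Its signals were 447.7 to 602.0 under dehydration and 548.1 to 662.0 in the controls. Acaca, the carboxylase that commits acetyl-CoA to fatty acids, had a change of -0.11 (95% interval -0.28 to 0.05). Fasn, the fatty acid synthase, had signals of 740.3, 952.6, 682.1, 538.6 and 525.8 under dehydration and 640.2, 597.9, 549.9, 643.7 and 547.6 in the controls. Dehydrated 1, 2 and 3 lay above all control arrays and dehydrated 4 and 5 below all of them, and the change of 0.17 did not pass (limma adjusted p = 0.520). The 3 arrays with the higher Fasn signals were also the 3 dehydrated arrays with the highest 3′ to 5′ ratios, at 2.27, 2.67 and 2.15, beside 2.05 and 1.61. With the ratio as a covariate the change was 0.0049, and without dehydrated 2 or dehydrated 5 it was 0.05 or 0.26. Its dimmer probe set changed in the other direction, -0.20 (adjusted p = 0.276), and the mean of both was -0.013. The elongase Elovl6 and the desaturases Fads1 and Fads2 had changes of -0.11, -0.08 and -0.11 (adjusted p = 0.569 to 0.779). Leaving out 1 array moved Elovl6 between -0.17 (without control 1) and -0.05 (without control 4), and Fads2 between -0.21 (without control 4) and -0.0079 (without control 5). The desaturase Scd gave at most 24.6 on any array, below the filter, and its change of -0.70 is that of a dim probe set (adjusted p = 0.349 in the fit without a filter).

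Where a member had several probe sets, most had the same sign. In 14 of 18 such genes every probe set had a negative change, and in 4 genes, Srebf2, Scap, Abca1 and Fasn, the signs differed. For Srebf2 and Scap the dissenting probe set was below the filter. Of the 23 probe sets that were not used for a gene, 14 passed the filter, and 1 of them, that of Idi1, was called. How well each probe set reads its transcript was not tested.

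**Figure D4:**
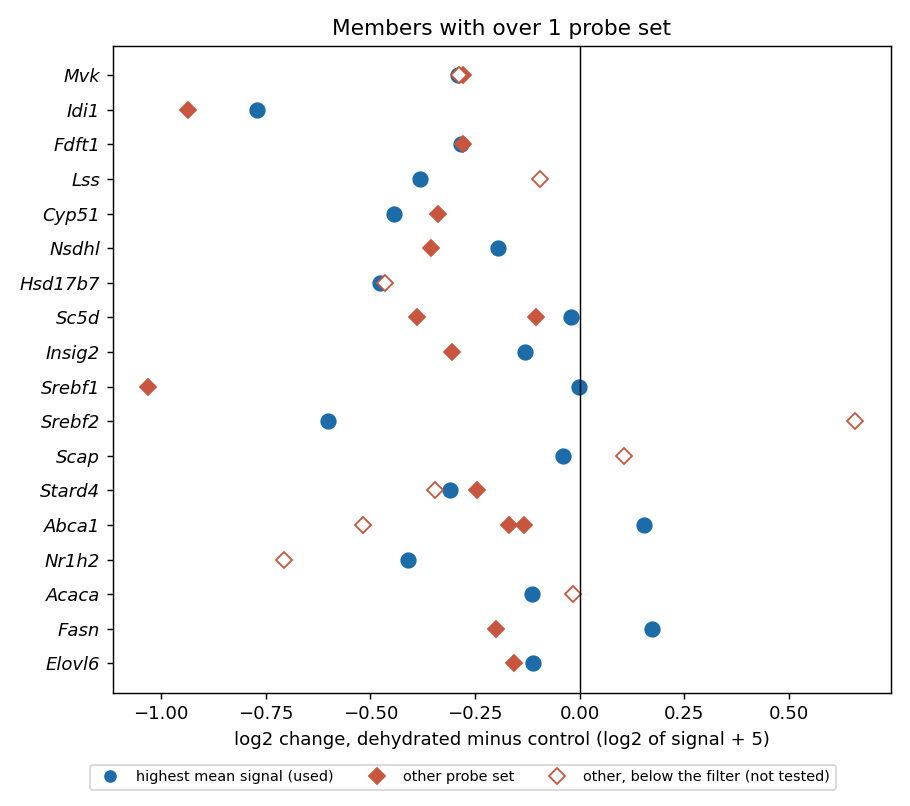
The log2 change of every probe set is plotted for the 18 members with several, with a circle for the one used and diamonds for the others (open where below the filter). The Srebf1 probe sets lie farther apart than those of any other gene whose probe sets all passed the filter, at -1.03 and near 0.

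Other genes of these pathways were counted from lists outside the members. Among 22 measured sterol genes, which include genes of cholesterol transport, esterification and degradation, none of the 21 tested passed, and 1 was lower and 1 higher at an unadjusted p under 0.05 in limma (8.66% and 8.70% of all tested probe sets). Their median change was 0.02, beside -0.28 for the members from squalene to cholesterol. Nr1h3, the LXR-alpha relative of Nr1h2, came nearest, with signals above all controls in every dehydrated array and a change of 0.55 (adjusted p = 0.0659). Vldlr, which like Lrp8 binds reelin, had a change of -0.37 (adjusted p = 0.159). These genes were picked out after their values were seen.

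The RNA of Gapdh and beta-actin is read on these arrays at both ends, and the log2 ratio of the 3′ end over the 5′ end is larger in shorter RNA. It averaged 2.15 ± 0.38 under dehydration and 1.78 ± 0.48 in controls (SD, n = 5), with a p of 0.214 in an exact two-sided permutation test. It ran from 1.61 to 2.67 and from 1.26 to 2.52, with dehydrated 5 lowest and control 1 highest of their groups. With the ratio as a covariate, 5 members were called lower, where 0.639% of all tested probe sets were. Lrp8, Idi1, Sqle, Fdps and Insig1 then had changes of -0.80, -0.86, -0.48, -0.40 and -0.49 (adjusted p = 0.000299 to 0.0372). Without dehydrated 5 and control 1, 8 members were called lower, the 6 above with Lss and Cyp51, while 3.92% of all tested probe sets were. With the ratio as a covariate on those 8 arrays, an analysis chosen after the data were seen, 2 members, Lrp8 and Idi1, were called, where 0.0322% of all tested probe sets were.

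The median deviation of the members from their means ran from -0.18 to -0.07 over the dehydrated arrays and from 0.06 to 0.19 over the control arrays. Dehydrated 5, at -0.16, lay between other arrays of its group. Control 1, at 0.06, was the lowest control array and so the one nearest to the dehydrated arrays.

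**Figure D5:**
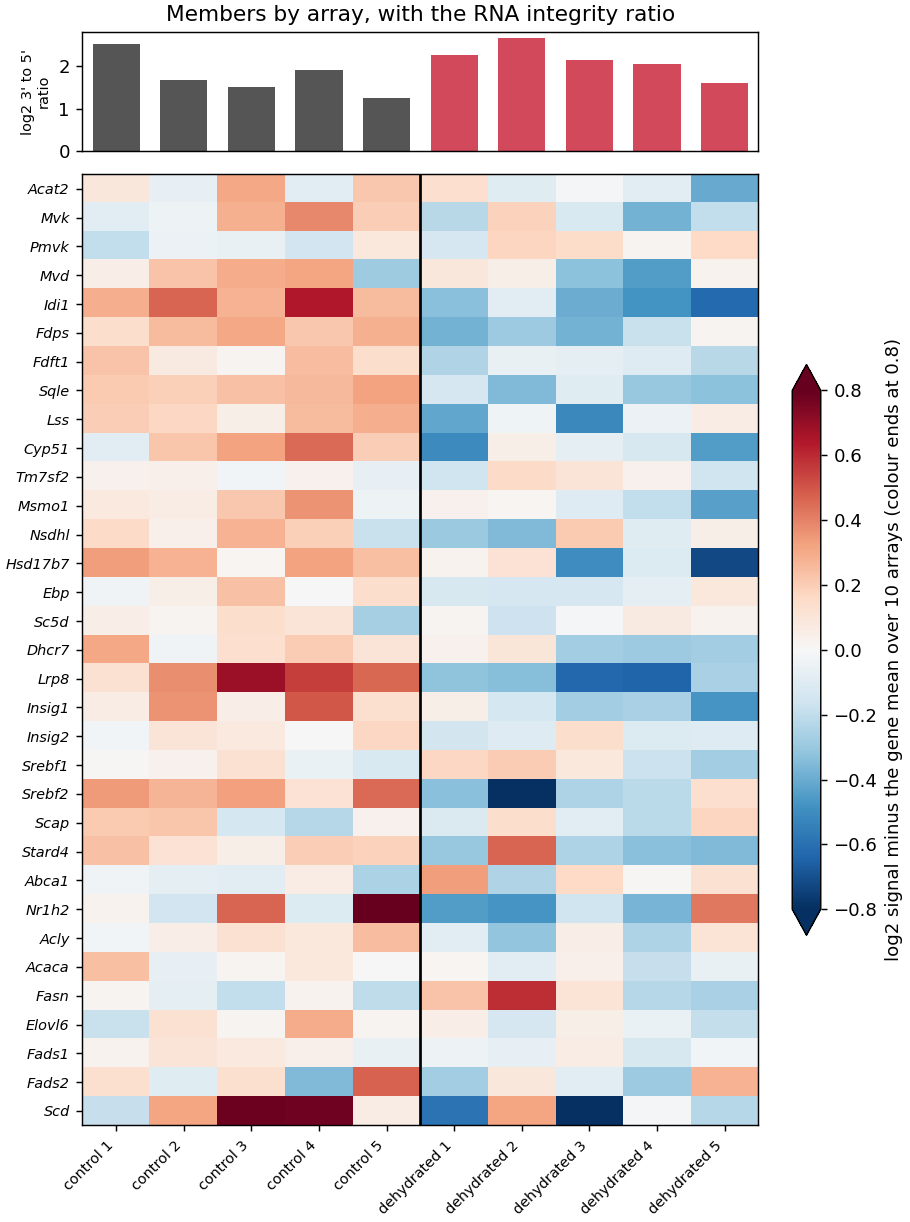
Each cell gives a member's log2 signal on 1 array minus its mean over 10 arrays, in pathway order, with control arrays on the left, and the bars above give the 3′ to 5′ log2 ratio of each array. The sterol rows are mostly red on the left and blue on the right, and the fatty acid rows from Acly to Fads2 are paler.

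Marker levels of several cell types differed between the groups as well, and their part in the members' changes was not tested. The summed signal of 6 measured melanotroph markers was 5842 to 6536 under dehydration and 6977 to 7702 in the controls. Of the 6, Pcsk2, a prohormone protease, fell (log2 change -0.88, limma adjusted p = 0.00219), Scg2 and Pam had changes of -0.30 and -0.20, and Pomc, Drd2 and Tbx19 had changes of -0.09, -0.08 and -0.01. That of 10 pituicyte and astroglia markers was 5215 to 5936 and 4652 to 5087. Gfap, Lhx2 and Slc1a3 rose, with log2 changes of 2.38, 0.39 and 0.36, while S100b, Aqp4 and Rax had changes of -0.21, -0.22 and -0.19 that did not pass. That of 6 fibroblast markers was 8172 to 10700 and 5575 to 6215, and 4 rose. Of this sum Mgp alone averaged 5104 and 2544, and Col1a1 and Col1a2 had changes of 0.23 and -0.175 that did not pass. The summed signal of 6 endothelial markers was 1132 to 1410 and 762 to 1012, and 3 rose. Those were Kdr, Flt1 and Emcn, with log2 changes of 0.63, 0.90 and 0.51. Tek, Pecam1 and Cldn5 had changes of 0.26, -0.01 and -0.05 that did not pass. Of all tested probe sets, 1.68% were called higher. The sum of 9 myelin and Schwann cell markers was 1334 to 1476 and 1081 to 1231, and 1, the peripheral myelin gene Pmp22, rose. Of this sum Pmp22 averaged 795 and 596, and Cnp 407 and 340. Cnp, Mal and Mbp had changes of 0.25, -0.33 and -0.03 that did not pass. Mag, Mog, Mobp, Prx and Sox10 were below the filter. Sums for 7 macrophage markers (1009 to 1408 and 906 to 1178, 1 rose) and 6 anterior lobe markers (4824 to 9379 and 2574 to 7950, 1 fell) overlapped. The macrophage markers did not move together. Aif1 rose, with a change of 0.42, while Cd68 had a change of -0.74 (limma adjusted p = 0.0810). Tyrobp, C1qa, Ptprc and Csf1r had changes of 0.47, 0.37, 0.15 and 0.02 that did not pass, and Cd163 was below the filter. All 4 adipocyte and all 3 steroidogenic markers were below the filter in these lobes.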

How the data were processed

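The deposited values are linear signal intensities. The submitters' processing notes name GCOS 1.2, and its algorithm and settings are not given in the sources used here. The deposited intensities had been scaled by the authors to a common level, since the mean without the lowest and highest 2% was 100 on every array. No 2 arrays were identical. Changes are therefore relative to the average probe set, and detection calls were not used.

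Of 31099 probe sets, 57 controls were left out. Of all probe sets, 20832 had 1 symbol, 436 had several and 9831 had none here, and the RefSeq gene table (GRCr8) changed 0 symbols by gene ID. Values were taken as log2(signal + 5), which understates the change of dim genes, and the brightest 60% by mean, 18625 probe sets, were tested. The comparison used limma 3.58.1 under R 4.3.3 (lmFit, eBayes with an intensity trend, two-sided, Benjamini-Hochberg over all tested probe sets), and a call is an adjusted p under 0.05. No set test was run. Array numbers follow deposition order and are names alone. Arrays are separate pools, and their number limits the precision. Promoters were searched in Python 3.11.15, and the fit was tested on simulated data.

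All members were named. Values on all arrays were given for called members and for Srebf1, Srebf2, Scap, Insig1 and Insig2, and for others where an array decided the value. The members and lists were chosen with earlier results of these data known. The alternatives were the scaling, the pseudocount (1 or 20), the filter, the averaging of probe sets, the variance model, the integrity ratio and the arrays left out.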

Additional observations from a re-analysis of the deposited data

Results flagged for a closer look

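In 4 of 66 sets of 5 arrays (33 members in each group) 1 array stood apart from the other 4 by Dixon's test at 95%, where about 1 in 20 sets is flagged by chance. Stard4 was 162.4 on dehydrated 2, against 89.6 to 96.8 on the other dehydrated arrays. Insig2 was 246.2 on dehydrated 3, against 201.3 to 207.2. Ebp was 95.6 on dehydrated 5, against 81.6 to 84.9. Sc5d was 279.5 on control 5, against 342.6 to 371.7 on the other control arrays. None of these 4 genes was called.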

How the results depend on the processing

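The calls of Lrp8, Idi1, Sqle and Fdps held under all 21 other settings, with changes of -1.0 to -0.80, -0.86 to -0.70, -0.52 to -0.45 and -0.57 to -0.40. Insig1 was called under 9 of the 21 and Srebf2 under 12. Members called lower numbered 4 to 8 over these settings, and 4 to 7 when 1 array was left out. On the 8 arrays without dehydrated 5 and control 1, with the ratio as a covariate, 2 were called.

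Among all tested probe sets, 458 were called. The count was 240 without an intensity trend, 218 (without dehydrated 3) to 1156 (without dehydrated 5) when 1 array was left out, 1398 without dehydrated 5 and control 1, and 24 on those 8 arrays with the ratio as a covariate. Of the calls 68.1% were higher, beside 80.1% with each array centred on its median and 47.7% without those 2 arrays. Of the other pathway genes, 0 were called in either direction. When 1 array was left out, 0 to 2 were called lower and 0 to 1 higher. With each array centred on its median 1 was called higher, and without dehydrated 5 and control 1, 2 were called lower.

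Signs turned in genes that did not pass. With centring, Tm7sf2 was at 0.026, Sc5d at 0.015 and Srebf1 at 0.036. With quantile normalization Tm7sf2 was at 0.025. With probe sets averaged Abca1 was at -0.050 and Fasn at -0.013. Without dehydrated 5 and control 1, Tm7sf2 was at 0.036 and Srebf1 at 0.072. With the ratio as a covariate on the same 8 arrays Acat2 was at 0.12, Nr1h2 at 0.031, Fasn at -0.25 and Fads2 at 0.086. Leaving out 1 array moved Tm7sf2 between -0.050 and 0.028, Sc5d between -0.091 and 0.017, Srebf1 between -0.051 and 0.069 and Scap between -0.10 and 0.0099. The cause was not tested. No paired analysis was possible because the array titles run serially through each group and nothing in the labels ties an array of one group to an array of the other.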

Other observations

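Among 27 measured genes of fatty acid and glycerolipid metabolism outside the members, none of the 24 tested passed in limma, while 6 were lower and 1 higher at an unadjusted p under 0.05 (8.66% and 8.70% of all tested probe sets). The change was -0.50 for Slc25a1, the mitochondrial citrate carrier that supplies Acly, and -0.35 for Mid1ip1, an activator of acetyl-CoA carboxylase (adjusted p = 0.0681 and 0.0667). Slc25a1 was 264.4 on dehydrated 5 and 147.5 to 161.9 on the other dehydrated arrays. Its change was -0.70 without dehydrated 5 and control 1 (limma adjusted p = 0.00148) and -0.33 when the RNA integrity ratio was a covariate (adjusted p = 0.204). That of Mid1ip1 was -0.35 without those 2 arrays (adjusted p = 0.0477). Scd2, a stearoyl-CoA desaturase, averaged 1171 ± 133 with dehydration and 1358 ± 111 without (SD, n = 5), a change of -0.22 (limma adjusted p = 0.194). Elovl5, an elongase of polyunsaturated fatty acids, had a change of 0.18 (adjusted p = 0.235). The genes given here were chosen after their values were seen.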
